A study of Solanum lycopersicum with 30 samples.

Results

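Roots of the tomato mutant rmc were compared with roots of wild-type (WT) plants in patches of field soil that had received water alone. The comparison used the 10 arrays titled as controls, 5 of WT and 5 of rmc, out of 30 arrays in the series. Its members are all 10038 probe sets of the array that are not array or reporter controls, of which the brightest 7528 were tested. The plants were 8 weeks old when set out in the field and grew there for 5 weeks. A patch of soil was then injected, and its roots were cut, washed and frozen 24 h later. The other 20 arrays come from WT and rmc roots in patches given ammonium, called low N and high N here. Those doses are labelled 10 and 100 µM for WT but 6.5 and 65 ppm for rmc, so in water alone the genotypes received the same labelled treatment. Low N and high N values are therefore only set beside those of water.

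Arbuscular mycorrhizal fungi enter the root cortex of most land plants and hand over phosphate and nitrogen from the soil in return for carbon. The plant admits them through a signalling pathway in which a calcium-dependent kinase activates CYCLOPS, a regulator of symbiosis genes. The name rmc stands for reduced mycorrhizal colonization, and the mutation has been attributed to the tomato homologue of CYCLOPS. No probe set carried that gene's name, so the genotype could not be checked on its own transcript. None of the symbols on the list for symbiosis and mycorrhiza, which includes the mycorrhizal phosphate transporter PT4, matched a named probe set either. How strongly either genotype was colonized is not given in the sources used here, and the labels do not say whether the 5 samples of a group came from separate plants. The p-values therefore rest on the spread between samples. For the probe sets, the main fit estimated that spread over all 30 arrays and not from the water arrays alone.

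Each array is 1 sample, and its values are log2 signals, that is, the logarithm of a probe set's brightness after each array had been scaled to the same mean. The 5 WT arrays resembled each other closely, with correlations of 0.956 to 0.979 across the probe sets tested. Among the rmc arrays, replicate 4 stood apart. It correlated at 0.848 to 0.946 with the other 4 rmc arrays, which correlated at 0.90 to 0.971 with each other. The median SD of a probe set was 0.164 in WT and 0.24 in rmc, or 0.206 in rmc without replicate 4. The summed signal of 9 genes of root tips and dividing cells was 5230 in rmc replicate 4 and 4650 in replicate 5, against 1790 to 2050 in rmc replicates 1 to 3 and 2120 to 3420 in WT. The part of these markers in the results below was not tested, and results that rest on replicate 4 are given with and without it. Of the 7 photosynthesis markers of shoots, 6 were dim and left out by the filter on low signal. The other, PSBR, was bright, with a mean of 10.45 in WT and 10.62 in rmc. RNA standards added before amplification, the poly-A spikes, read 8.47 ± 0.123 in WT and 8.83 ± 0.236 in rmc (log2, SD, n = 5), a difference of 0.362 (two-sided exact permutation p = 0.0317, adjusted over 5 array measures p = 0.159). The hybridization spikes, the 3' to 5' differences of GAPDH and actin and the share of probe sets at 0 gave exact permutation p-values from 0.373 to 0.849.

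In water, 36 of 7528 probe sets differed between rmc and WT at an adjusted p under 0.05, which is 0.478%. Of these, 15 were higher in rmc (0.199%) and 21 were lower (0.279%), and 665 had an unadjusted p under 0.05. More falls than rises were large: with dim signals bounded as described below, 5 falls and 2 rises exceeded 3 on the log2 scale. These are counts of probe sets. The 2 rises belong to the same gene, psi14B, and 2 of the 5 falls share a design number. Only 8 of the 36 carried a gene name. They belong to 7 genes, of which HSP17.4, GA3ox1 and LOC543717 were lower in rmc and psi14B, IMP3, krp2 and ail were higher. The arrays of the groups did not overlap for 31 of the 36, compared with 2.64% of all probe sets tested. The count was 54 without rmc replicate 4 (31 higher, 23 lower), and 30 of the 36 were still called then. It was 22 without rmc replicate 3 (9 higher, 13 lower) and 24 without WT replicate 1 (12 higher, 12 lower). With the poly-A spikes as the scaling reference, the median of all differences moved from -0.02 to -0.38 and the calls became 5 higher and 26 lower, or 16.1% higher against 41.7% as first scaled. The differences below are relative to the common mean of each array.

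**Figure D1:**
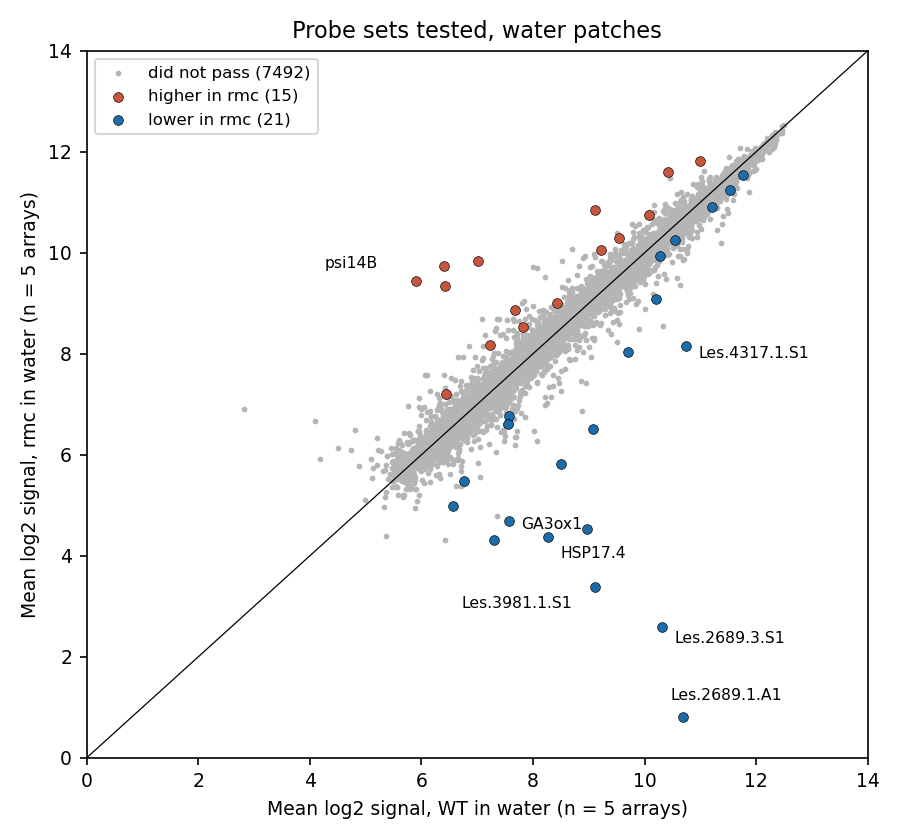
Mean log2 signal of each probe set tested in rmc roots (vertical axis) against WT roots (horizontal axis) in water, 5 arrays each, with the line of equal signal. The 21 called lower in rmc (blue) reach down to Les.2689.1, near 11 in WT and near 1 in rmc, and the 15 called higher (red) include psi14B.

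The largest differences belonged to a pair of probe sets that share a design number, Les.2689.1.A1_at and Les.2689.3.S1_at, and have no gene name here. Les.2689.1.A1_at read 10.85, 10.78, 10.57, 10.44 and 10.83 in WT replicates 1 to 5 and 0, 0, 2.03, 1.58 and 0.43 in rmc replicates 1 to 5 (log2 signal). Les.2689.3.S1_at read 10.35, 10.36, 10.45, 10.15 and 10.24 in WT against 2.89, 2.38, 3.67, 1.15 and 2.88 in rmc. All WT arrays were bright and alike, and all rmc arrays lay below 4.66, the highest reading on these arrays of 86 control probe sets for sequences that were not added to the samples. The rmc signals are therefore only bounded. Against that level, WT stood at least 65.6-fold higher for Les.2689.1.A1_at (adjusted p = 1.63e-14) and at least 50.3-fold higher for Les.2689.3.S1_at (adjusted p = 6e-14). Here and below, an adjusted p beside a bounded fold is that of limma's fit to the readings, not to the bound. On the ammonium arrays the pair read 9.83 to 10.79 in WT and 0 to 3.23 in rmc, so none of the 15 rmc arrays of the series came near any of the 15 WT arrays. In whole roots, fewer cells of a type and less RNA per cell cannot be told apart, here and for the transcripts that follow. Whether the probes match the sequences of both genotypes equally was not tested either.

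A further set of transcripts was clearly measured in WT and dim in rmc, but varied among the WT arrays. Les.3981.1.S1_at, without a name, read 10.09, 9.48, 8.88, 8.50 and 8.60 in WT against 3.17, 2.84, 5.22, 2.34 and 3.3 in rmc. Only 1 of its 5 rmc arrays lay above 4.66. With the other 4 set to that level, WT was at least 20.2-fold higher (adjusted p of the fit to the readings 1.4e-06), and the groups were far apart. Les.5764.1.S1_at, also unnamed, read 10.01, 9.26, 8.63, 8.31 and 8.62 in WT against 3.80, 2.73, 6.12, 4.31 and 5.66 in rmc. With the 3 rmc arrays under 4.66 set to that level, WT was at least 14.1-fold higher (adjusted p = 0.000331), again with no overlap. Both were highest in WT replicate 1 and both had their highest rmc value in replicate 3.

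HSP17.4, which encodes a small heat shock protein, was the largest named fall. Its log2 signals were 8.78, 8.89, 8.00, 7.91 and 7.80 in WT against 3.02, 3.74, 4.13, 5.88 and 5.07 in rmc. Every rmc array lay below every WT array, replicate 4 nearest to them, and 2 of the 5 were above 4.66. Bounded at that level, WT was at least 9.8-fold higher (adjusted p = 0.00125), and at least 11.4-fold without rmc replicate 4 (adjusted p = 0.000323). The only other member of the list for heat shock and protein folding that was bright enough to test, the HSP90-type chaperone gene HSC80, differed by 0.01 (SE 0.08, adjusted p = 0.997). HSP21 read 4.49 ± 0.96 in WT and 2.98 ± 0.86 in rmc (SD, n = 5), too low for the test.

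GA3ox1, a gibberellin 3-oxidase gene whose product makes bioactive gibberellins, was lower in rmc as well. It read 8.71, 7.80, 7.16, 6.83 and 7.36 in WT against 4.69, 3.94, 6.08, 3.45 and 5.28 in rmc. The groups did not overlap. With the 2 rmc arrays under 4.66 set to that level, WT was at least 5.64-fold higher (adjusted p = 0.00195). In a fit of the water arrays alone the adjusted p of GA3ox1 was 0.0527. The other gibberellin genes that could be tested did not pass. They were 20ox-3, a gibberellin 20-oxidase gene (-0.40, SE 0.22, adjusted p = 0.67), and GAI, which encodes a DELLA repressor of gibberellin responses (0.54, SE 0.27, adjusted p = 0.569). In the list for auxin, gibberellin and cytokinin, which holds GA3ox1 only under an older symbol and so does not count it, 0 of 6 passed limma's test, nor did any reach an unadjusted p of 0.05. Its median difference was -0.17, beside -0.02 over all probe sets tested.

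**Figure D2:**
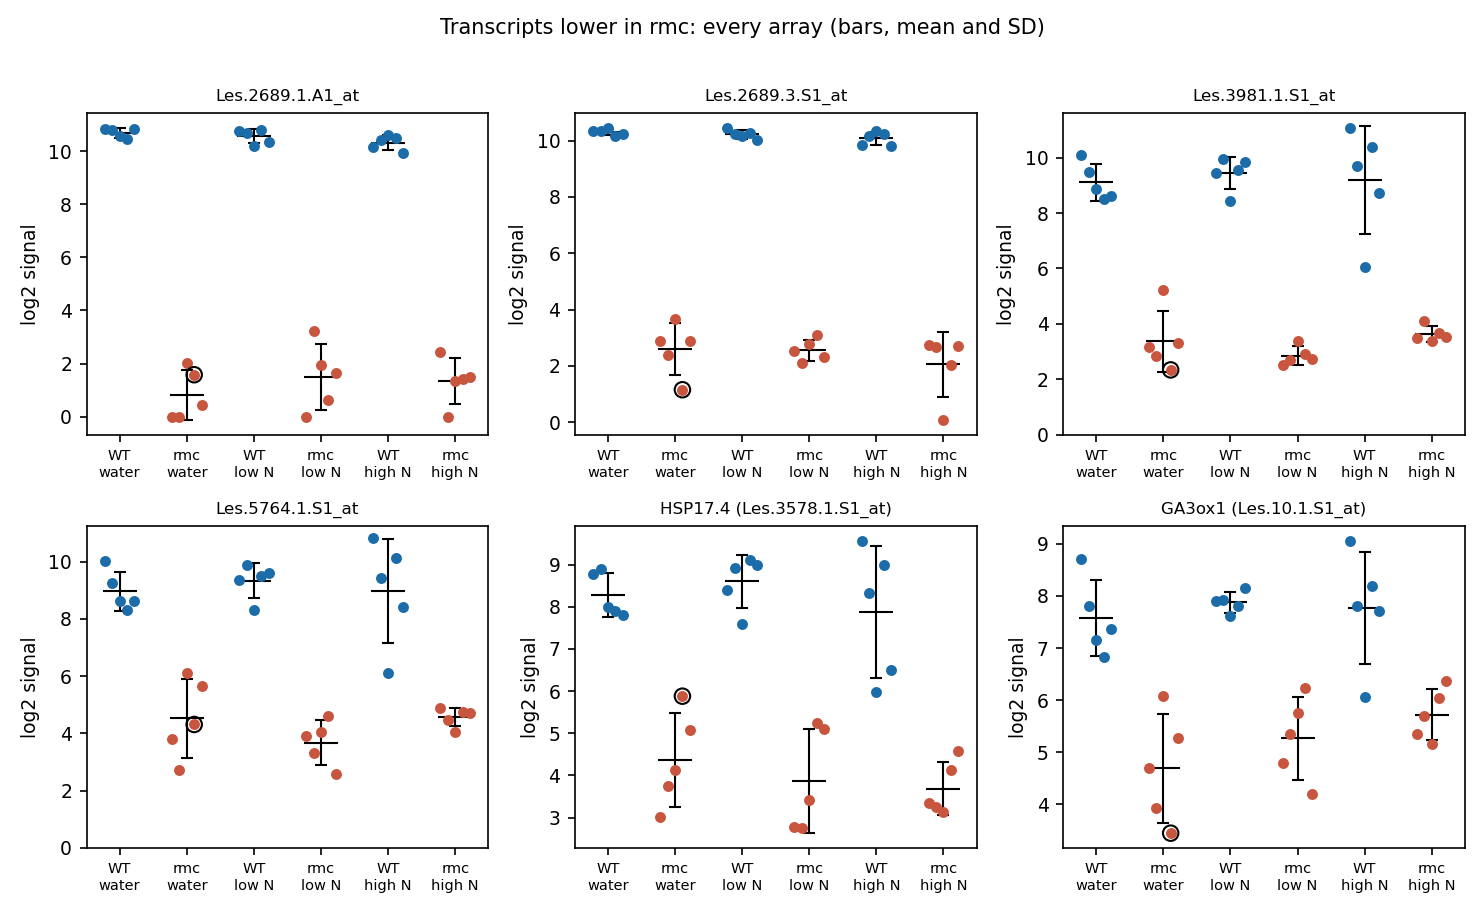
Log2 signal of 6 transcripts lower in rmc, 1 point per array, in WT (blue) and rmc (red) roots of water, low N and high N patches. Horizontal bars are means and error bars SDs (n = 5); the circled point is rmc water replicate 4. In water the rmc arrays lie below all WT arrays in each panel, and WT high N replicate 3 is the lowest WT array for Les.3981, Les.5764, HSP17.4 and GA3ox1.

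LOC543717, a named gene whose function the files do not give, read 10.02, 9.37, 8.83, 8.34 and 8.83 in WT against 7.64, 5.91, 7.42, 5.61 and 5.95 in rmc. Its signal was 5.95-fold lower in rmc, with groups that did not overlap (-2.57, SE 0.57, adjusted p = 0.0324). This call was lost when any of 7 arrays was left out, with an adjusted p of 0.127 without WT replicate 1, 0.103 without WT replicate 2, 0.0579 and 0.0573 without WT replicates 3 and 5, and 0.0919, 0.0736 and 0.111 without rmc replicates 2, 4 and 5. In a fit of the water arrays alone it was 0.0527.

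Unnamed transcripts with falls of similar size were LesAffx.69234.1.S1_at and LesAffx.28554.1.S1_at. LesAffx.69234.1.S1_at read 8.12, 7.61, 7.15, 6.88 and 6.79 in WT against 4.60, 4.00, 4.49, 4.14 and 4.31 in rmc. All of its rmc arrays lay below the level of 4.66, so WT was at least 6.29-fold higher (adjusted p = 0.00156). LesAffx.28554.1.S1_at read 9.33, 9.15, 8.23, 7.73 and 8.11 in WT against 6.26, 4.89, 7.37, 4.47 and 6.09 in rmc, where 1 array lay under 4.66, so WT was at least 6.31-fold higher (adjusted p = 0.0102). It missed the threshold without WT replicate 1 (adjusted p = 0.0502) and in a fit of the water arrays alone (0.0787).

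Most of the 12 falls larger than 1.5 on the log2 scale had the same highest or lowest WT array. For 9 of them WT replicate 1 was the highest of the WT water arrays. For 9 of them WT high N replicate 3 was the lowest of all 15 WT arrays in the series: there Les.3981.1.S1_at read 6.04, Les.5764.1.S1_at 6.12, HSP17.4 5.99 and LOC543717 6.30, against 8.45 or more, 8.31 or more, 6.50 or more and 8.34 or more on the other 14. The Les.2689 pair did not share this dip, with 10.59 and 10.35 on that array.

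Among falls of about 1 on the log2 scale, LesAffx.60831.1.S1_at went from a mean of 9.70 in WT to 8.04 in rmc (-1.66, SE 0.31, adjusted p = 0.0066) and LesAffx.51319.1.S1_at from 10.20 to 9.09 (-1.12, SE 0.20, adjusted p = 0.00431). The remaining ones, Les.5493.1.S1_at (-1.59), LesAffx.770.1.S1_at (-1.27), LesAffx.71534.1.S1_at (-0.94) and LesAffx.65689.1.A1_at (-0.80), were dimmer, with WT means of 6.57, 6.76, 7.56 and 7.56. Another 5 falls were small, from -0.23 to -0.34, at mean signals of 10.11 to 11.70. Their arrays varied little: for Les.3333.1.S1_at the WT mean was 11.77 ± 0.05 and the rmc mean 11.54 ± 0.07 (SD, n = 5, adjusted p = 0.027). As first scaled, all 5 are smaller in size than the median of -0.38 over all probe sets under poly-A spike scaling. That scaling moves every difference down by the same amount, these falls included.

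Of the transcripts higher in rmc, psi14B rose most. The gene is named for induction by phosphate starvation. Its probe set Les.2672.1.S1_x_at read 6.91, 5.62, 6.60, 6.24 and 6.68 in WT against 10.48, 9.59, 10.48, 8.04 and 10.10 in rmc, 10.0-fold higher in rmc (3.33, SE 0.58, adjusted p = 0.00275). Every rmc array lay above every WT array, with replicate 4 the lowest of them. The suffixes of this probe set and of Les.2672.1.S1_s_at both mark probes that may also match similar sequences. Les.2672.1.S1_s_at gave 5.94, 5.45, 5.80, 5.86 and 6.48 in WT against 10.21, 9.27, 10.47, 7.38 and 9.93 in rmc, a difference of 3.54 (SE 0.60, adjusted p = 0.00271). The third probe set of the gene, Les.2672.2.S1_at, split the rmc arrays: 4 read 7.36 to 8.94, while replicate 4 read 2.02 and WT 2.25 to 3.48, all under 4.66. This probe set, which has neither suffix, did not pass with all arrays (adjusted p = 0.0971). Without rmc replicate 4 it passed, with rmc at least 11.1-fold higher (adjusted p = 0.000829).

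psi14A is the immediate neighbour of psi14B in the RefSeq annotation, with 0 genes listed between them. It read 4.52, 3.15, 3.84, 4.21 and 4.77 in WT against 8.13, 6.99, 8.55, 2.31 and 7.36 in rmc. The pattern was that of the third psi14B probe set: 4 rmc arrays lay above all WT arrays, while rmc replicate 4 and 4 of the 5 WT arrays lay under 4.66. It did not pass with all arrays (adjusted p = 0.214). Without rmc replicate 4 it passed, with rmc at least 8.46-fold higher (adjusted p = 0.000724). Because sequences of such neighbouring copies can be alike, signal shared between psi14A and psi14B cannot be separated here.

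PT2, PPCK1 and PPCK2 divided the rmc arrays in the same way and did not pass. PT2, a phosphate transporter gene of the root surface, read 8.97, 8.46, 8.83, 8.46 and 8.79 in WT against 11.15, 10.13, 10.81, 8.36 and 9.90 in rmc. Here 4 rmc arrays lay above all WT arrays and replicate 4 below them (1.37, SE 0.37, adjusted p = 0.118). Without rmc replicate 4 the difference was 1.79 (SE 0.31, adjusted p = 0.00144), 3.47-fold higher in rmc. The related transporter gene PT1 read 9.82 to 10.03 in WT and 9.67 to 10.98 in rmc (0.28, SE 0.17, adjusted p = 0.729), and its sign turned with poly-A spike scaling.

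The LX ribonuclease gene rnalx, whose product cuts RNA, read 7.36, 8.04, 8.16, 8.51 and 8.29 in WT against 10.37, 9.78, 10.22, 8.79 and 9.30 in rmc. The groups did not overlap, but the difference of 1.62 (SE 0.48) had an adjusted p of 0.164, and of 0.0952 without rmc replicate 4. PPCK1 and PPCK2 encode kinases that activate PEP carboxylase. They differed by 0.51 (SE 0.22, adjusted p = 0.455) and 0.71 (SE 0.36, adjusted p = 0.594). In rmc replicate 4 they read 9.39 and 6.78, below all WT arrays, against 10.37 to 10.67 and 8.56 to 9.28 on the other rmc arrays. TPSI1, a non-coding RNA of phosphate starvation, was bright in both genotypes, at 11.71 ± 0.33 in WT and 12.07 ± 0.18 in rmc (SD, n = 5, difference 0.36, adjusted p = 0.716). The second ribonuclease gene of the list, RNALE, pointed the other way (-1.05, SE 0.66, adjusted p = 0.739).

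Over the list for phosphate starvation and transport, 0 of 7 probe sets passed limma's test, 3 had an unadjusted p under 0.05 and 6 were higher in rmc, with a median difference of 0.51. Over all probe sets tested, 8.83% had such a p, 45.2% were higher in rmc and the median was -0.02. Neither psi14 gene is on that list. The summed signal of its 7 members was 5220 to 7250 on the WT arrays. On the rmc arrays it was 13100, 9170, 11300, 5910 and 9130 for replicates 1 to 5, so replicate 4 lay within the WT range and the other 4 above it.

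**Figure D3:**
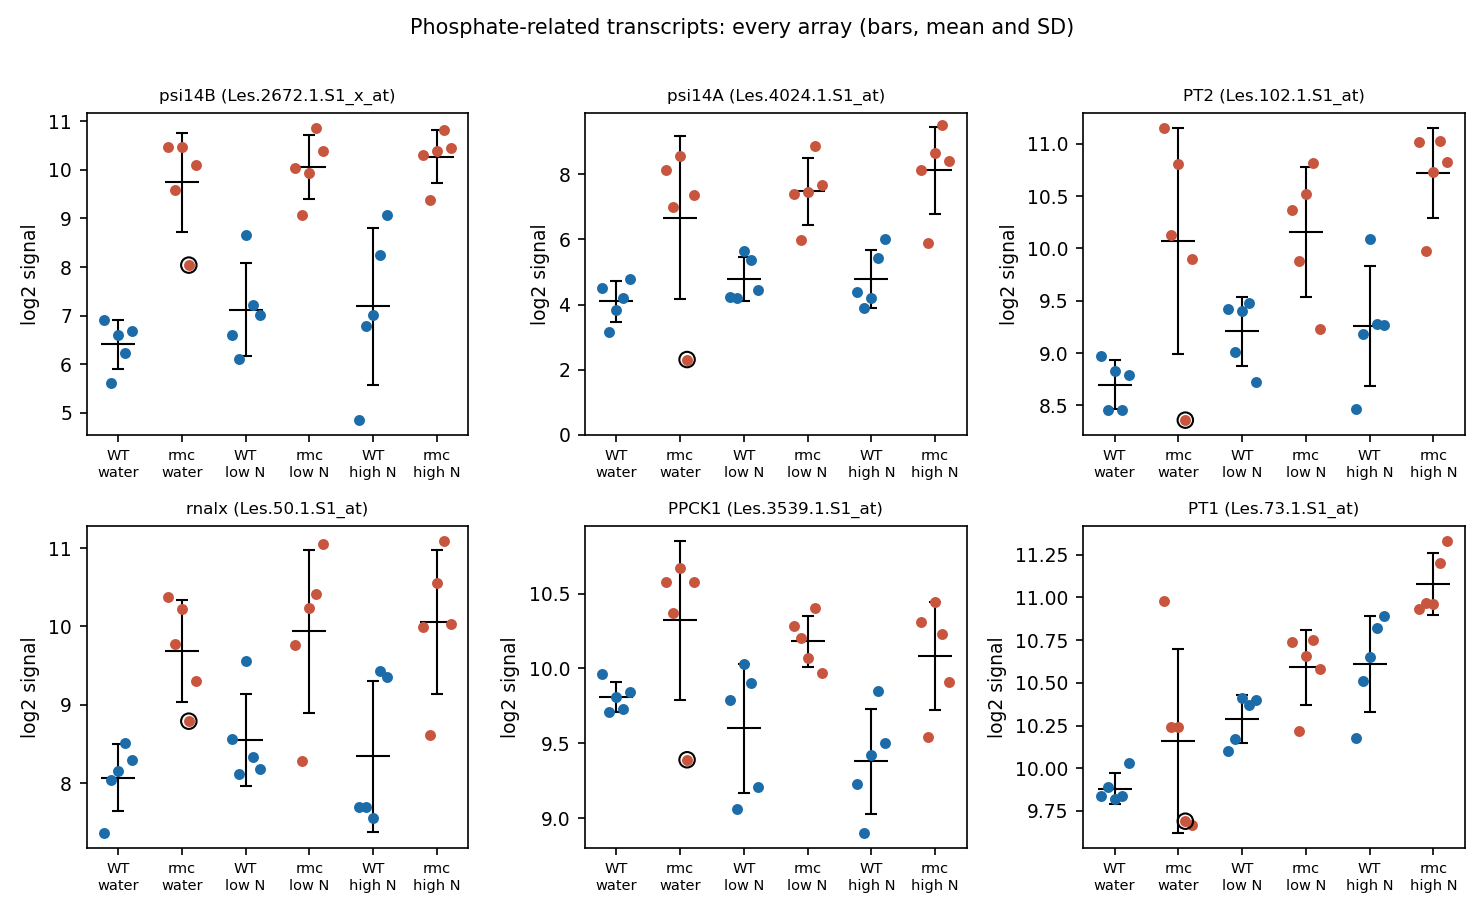
Log2 signal of psi14B, psi14A and 4 members of the phosphate list, 1 point per array, in WT (blue) and rmc (red) roots of each treatment; horizontal bars are means and error bars SDs (n = 5). The circled rmc water replicate 4 does not exceed the WT water arrays for psi14A, PT2, PPCK1 and PT1, and below the other rmc water arrays for psi14B and rnalx.

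LesAffx.8748.1.A1_at and LesAffx.59441.1.S1_at were the largest rises among unnamed probe sets. LesAffx.8748.1.A1_at read 6.80, 5.26, 7.14, 6.07 and 6.84 in WT against 10.07, 9.0, 10.11, 7.69 and 9.86 in rmc (2.92, SE 0.53, adjusted p = 0.00431). LesAffx.59441.1.S1_at read 7.24, 6.61, 7.24, 6.89 and 7.06 in WT against 10.73, 9.94, 10.70, 7.74 and 10.04 in rmc (2.82, SE 0.49, adjusted p = 0.00281). In both the rmc arrays lay above all WT arrays, and replicate 4 was again the lowest. It was the lowest rmc array for 12 of the 15 probe sets called higher in rmc. Without it both differences were 3.34, and in a fit of the water arrays alone both had an adjusted p of 0.0527.

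LesAffx.8808.2.A1_at and LesAffx.8808.1.S1_at share a design number and rose together. The first read 8.69 to 9.51 in WT and 10.13 to 11.43 in rmc (1.74, SE 0.31, adjusted p = 0.00281), the second 10.22 to 10.60 in WT and 10.88 to 11.95 in rmc (1.17, SE 0.22, adjusted p = 0.00737). Les.5538.1.S1_at differed by 1.18, Les.3180.3.A1_at by 0.95, Les.5392.1.S1_at by 0.83, LesAffx.57367.1.S1_at by 0.75, Les.2576.1.A1_at by 0.66 and LesAffx.9393.1.S1_at by 0.57. Of these 6, Les.5538.1.S1_at, Les.5392.1.S1_at and Les.2576.1.A1_at had overlapping arrays in the 2 genotypes.

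Named genes with rises below 1 on the log2 scale were IMP3, krp2 and ail. IMP3, an inositol monophosphatase gene, read 9.75, 9.32, 9.76, 9.34 and 9.58 in WT against 10.34, 10.25, 10.56, 9.78 and 10.50 in rmc. It was 1.67-fold higher in rmc with no overlap (0.74, SE 0.15, adjusted p = 0.0102), and missed the threshold without WT replicate 2 (adjusted p = 0.0501) or rmc replicate 3 (adjusted p = 0.0558). krp2, which encodes an inhibitor of cyclin-dependent kinases, read 7.67, 7.86, 7.99, 7.60 and 7.96 in WT against 8.31, 8.37, 8.49, 8.90 and 8.62 in rmc. It was 1.65-fold higher (0.72, SE 0.16, adjusted p = 0.0332). Here replicate 4 was the highest rmc array, and the difference was 0.63 without it (adjusted p = 0.0832).

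The call of krp2 was also lost without WT replicates 1, 2 or 4 (adjusted p = 0.111, 0.0751 and 0.107) or rmc replicates 3 or 5 (0.0687 and 0.104). For ail, whose function the files do not give, the brightest probe set read 11.15, 10.63, 11.16, 10.95 and 11.11 in WT against 12.17, 11.71, 12.18, 10.95 and 12.03 in rmc (0.81, SE 0.19, adjusted p = 0.0439). It overlapped through replicate 4 alone and differed by 1.02 without it (adjusted p = 0.000569). Leaving out any other water array ended the call, with adjusted p-values from 0.0622 without WT replicate 3 to 0.177 without WT replicate 2. Its other probe sets gave 0.65 (SE 0.18, adjusted p = 0.118) and 1.25 (SE 0.44, adjusted p = 0.309) and did not pass. With poly-A spike scaling IMP3, krp2 and ail had adjusted p-values of 0.207, 0.296 and 0.204, and in a fit of the water arrays alone 0.102, 0.0595 and 0.237.

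Without rmc replicate 4, 24 further probe sets were called, of which 17 were higher in rmc. Those with a name were PT2, psi14A, the third probe set of psi14B, a second one of ail (0.80, adjusted p = 0.0159) and HDS. HDS acts in plastid isoprenoid synthesis and differed by 0.46 (SE 0.10, adjusted p = 0.0241). The 6 calls lost without that array were LOC543717, krp2 and 4 unnamed falls.

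Les.4317.1.S1_at, an unnamed probe set, was lower in rmc in water but not detectably so in high N. It read 11.26, 10.93, 9.96, 10.66 and 10.91 in WT against 8.65, 8.18, 7.74, 8.19 and 8.05 in rmc, 6.00-fold lower in rmc with no overlap (-2.58, SE 0.30, adjusted p = 5.8e-06). In low N, WT read 9.91 to 11.36 and rmc 9.24 to 10.80 (-0.80, SE 0.30, adjusted p = 0.179). In high N, WT read 11.64 to 12.14 and rmc 11.36 to 12.29 (0.04, SE 0.30, adjusted p = 0.97). The genotype difference in water differed from that in high N by -2.63 (SE 0.42, adjusted p = 0.00918). This was the only such call among 7528 probe sets (0.0133%), and the labelled ammonium doses of the genotypes were unlike. Against low N the same difference was -1.79 (SE 0.42, unadjusted p = 0.000235, adjusted p = 0.928). No probe set passed limma's test for water against low N (0.0%), though the unadjusted p was under 0.05 for 184.

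None of the named genes of nitrogen uptake and assimilation passed in water. The glutamate dehydrogenase gene gdh1 read 11.52, 11.58, 11.44, 11.47 and 11.29 in WT against 11.09, 11.26, 11.39, 10.38 and 11.18 in rmc (-0.40, SE 0.12, adjusted p = 0.145). Replicate 4 lay far below the rest, and without it the difference was -0.23 (adjusted p = 0.202). The glutamine synthetase gene gts1 read 9.75, 9.62, 9.66, 9.10 and 9.64 in WT against 9.13, 8.62, 9.62, 8.03 and 8.70 in rmc by its brighter probe set (-0.74, SE 0.32, adjusted p = 0.455). Its dimmer probe set gave -0.68 (SE 0.32, adjusted p = 0.524), and both groups overlapped.

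AMT1-2, an ammonium transporter gene, read 9.05 to 9.76 in WT and 8.58 to 9.84 in rmc (-0.44, SE 0.25, adjusted p = 0.672). GS2, the plastid form of glutamine synthetase, gave 0.33 (SE 0.49, adjusted p = 0.941), with a sign that turned with poly-A spike scaling. Of the 5 probe sets of 4 genes on this list, 4 were lower in rmc and 3 had an unadjusted p under 0.05, and the median difference was -0.44. Those 3 were gdh1 and both probe sets of gts1. Over all probe sets tested, 8.83% had such a p, 45.2% were higher in rmc and the median was -0.02. The summed signal of the 5 on the list ran from 4040 to 4990 in WT and from 2520 in replicate 4 to 4310 in rmc.

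**Figure D4:**
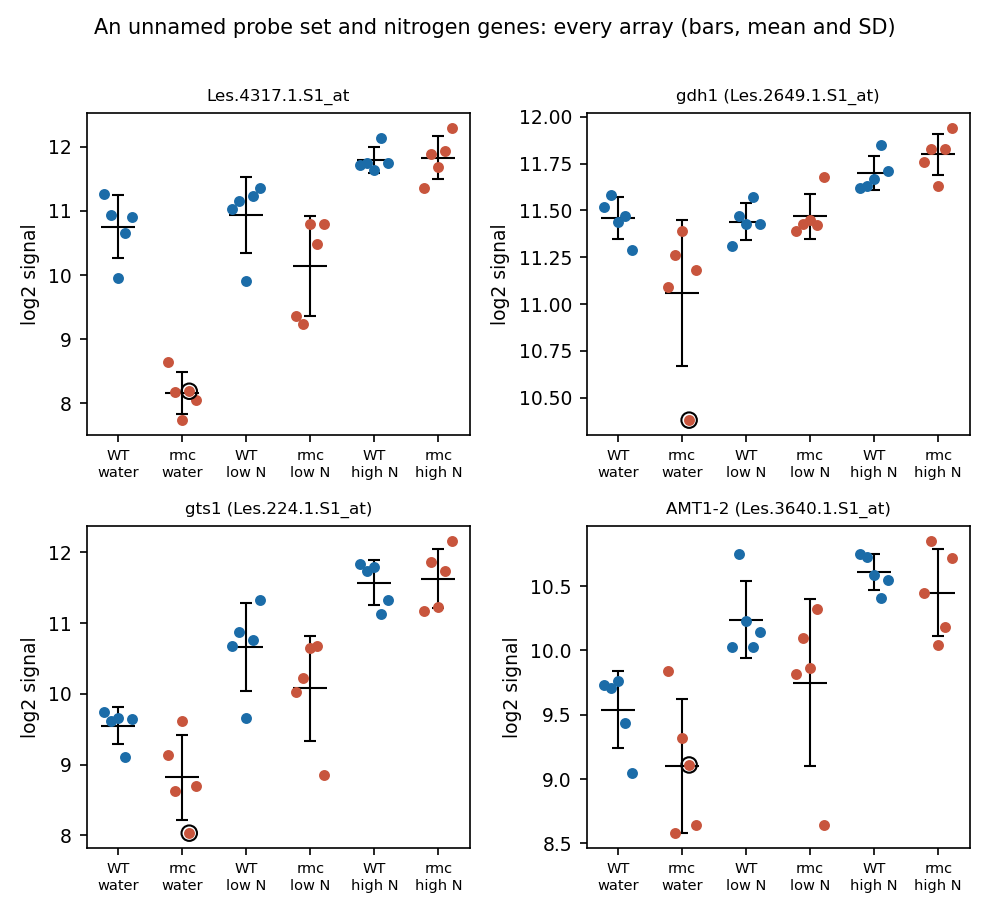
Log2 signal of the unnamed probe set Les.4317.1.S1_at and of 3 nitrogen genes, 1 point per array, in WT (blue) and rmc (red) roots of each treatment; horizontal bars are means and error bars SDs (n = 5), and the circle marks rmc water replicate 4. Les.4317.1.S1_at separates the genotypes in water and not in high N, while the nitrogen genes overlap in water.

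In the other lists, 0 probe sets passed limma's test. Of 25 tested for ethylene synthesis and signalling, 5 had an unadjusted p under 0.05, namely 3 for the ACC oxidase gene ACO6 (0.99, 1.31 and 1.19, with adjusted p of 0.387, 0.421 and 0.464) and 1 each for the receptor genes ETR5 (-0.50, SE 0.15, adjusted p = 0.201) and ETR6 (-1.33, SE 0.63, adjusted p = 0.542). The median of that list was 0.01. Defence genes had 9 of 11 probe sets lower in rmc and a median of -0.32, with 1 unadjusted p under 0.05, that of the glucanase gene GluB (-0.33, adjusted p = 0.513). Their summed signal was 12800 to 14700 in WT but spread from 7280 in replicate 4 to 22100 in replicate 2 in rmc.

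The medians of the lists for antioxidant enzymes (18 probe sets), cell wall (26), sugar and starch (16), water channels and ion transport (11), and ribosomal proteins and translation factors (5) lay between -0.04 and 0.06. Those of amino acid (7), iron and other metals (10), carotenoid and isoprenoid (10), phenylpropanoid (2), jasmonate (8) and transcription factor lists (12) lay between 0.08 and 0.23, and that of the abscisic acid, drought and salt list (2) was 0.60. The amino acid permease gene AAP2 differed by 0.55 (SE 0.25, adjusted p = 0.518), the metallothionein gene MTA by -1.17 (SE 0.49, adjusted p = 0.443), the ascorbate peroxidase gene APX2 by -0.01 (adjusted p = 0.996) in its brighter and 0.27 (SE 0.08, adjusted p = 0.144) in its dimmer probe set and the cold-response factor gene CBF1 by 1.61 (SE 0.76, adjusted p = 0.532). Of the other metallothionein genes, MT3 differed by -0.38 (limma adjusted p = 0.937). The probe sets of MT4 differed by 0.18 to 0.48 (limma adjusted p from 0.44 to 0.88). The 8 dividing-cell probe sets tested all had an unadjusted p above 0.05 and a median of -0.09. The vascular (2 tested, median 0.17), senescence (1 tested, -0.19) and shoot photosynthesis markers (1 tested, 0.17) had none either.

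Arrays from the ammonium patches, none of which enter the water contrast, gave the same genotype differences for most of the 36 probe sets. In low N 147 probe sets were called between the genotypes (1.95% of those tested) and in high N 82 (1.09%). Of the 36, 32 were called in the same direction in low N (88.9% of the water calls and 21.8% of the low N calls) and 28 in high N (77.8% and 34.1%). The 3 contrasts share 1 estimate of each probe set's spread, so these calls are not fully independent. They also rest on that shared estimate. Fitted with only the arrays of the groups compared, low N gave 80 calls, high N 5 and water 20. A total of 28 probe sets were called in all 3 treatments, 13 higher and 15 lower in rmc, among them HSP17.4, GA3ox1, LOC543717, psi14B, IMP3 and ail.

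For 10 of the 36, the 15 rmc arrays did not overlap the 15 WT arrays at all, compared with 0.159% of all probe sets tested. These were 9 falls, with the Les.2689 pair, Les.3981.1.S1_at, Les.5764.1.S1_at and HSP17.4 among them, and 1 rise, that of Les.3180.3.A1_at. HSP17.4 read 7.59 to 9.12 in WT and 2.75 to 5.25 in rmc in low N (adjusted p = 4.16e-05), and 5.99 to 9.56 and 3.13 to 4.58 in high N (adjusted p = 0.000386). GA3ox1 read 7.61 to 8.15 in WT and 4.20 to 6.24 in rmc in low N, and 6.07 to 9.05 and 5.16 to 6.37 in high N. psi14B differed by 2.94 and 3.08 by the probe set that gave 3.33 in water, and IMP3 by 0.73 and 0.79, beside 0.74. PT2, which did not pass in water, differed by 0.96 in low N (adjusted p = 0.191) and by 1.46 in high N (adjusted p = 0.0472), and psi14A had an adjusted p of 0.0864 in low N and 0.0367 in high N.

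Only 4 of the 36 were called in neither ammonium treatment. These were Les.4317.1.S1_at, krp2 (0.30 in low N and 0.50 in high N), LesAffx.57367.1.S1_at (0.20 and 0.19, beside 0.75 in water) and LesAffx.31317.1.S1_at (-0.17 and -0.15, beside -0.29). For LesAffx.57367.1.S1_at the difference in water exceeded those in low N and high N with unadjusted p-values of 0.0162 and 0.0155, which did not pass the adjustment. The counts in ammonium moved with single arrays, from 59 without rmc low N replicate 5 to 166 without rmc low N replicate 2, and from 23 without WT high N replicate 1 to 142 without rmc high N replicate 2.

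**Figure D5:**
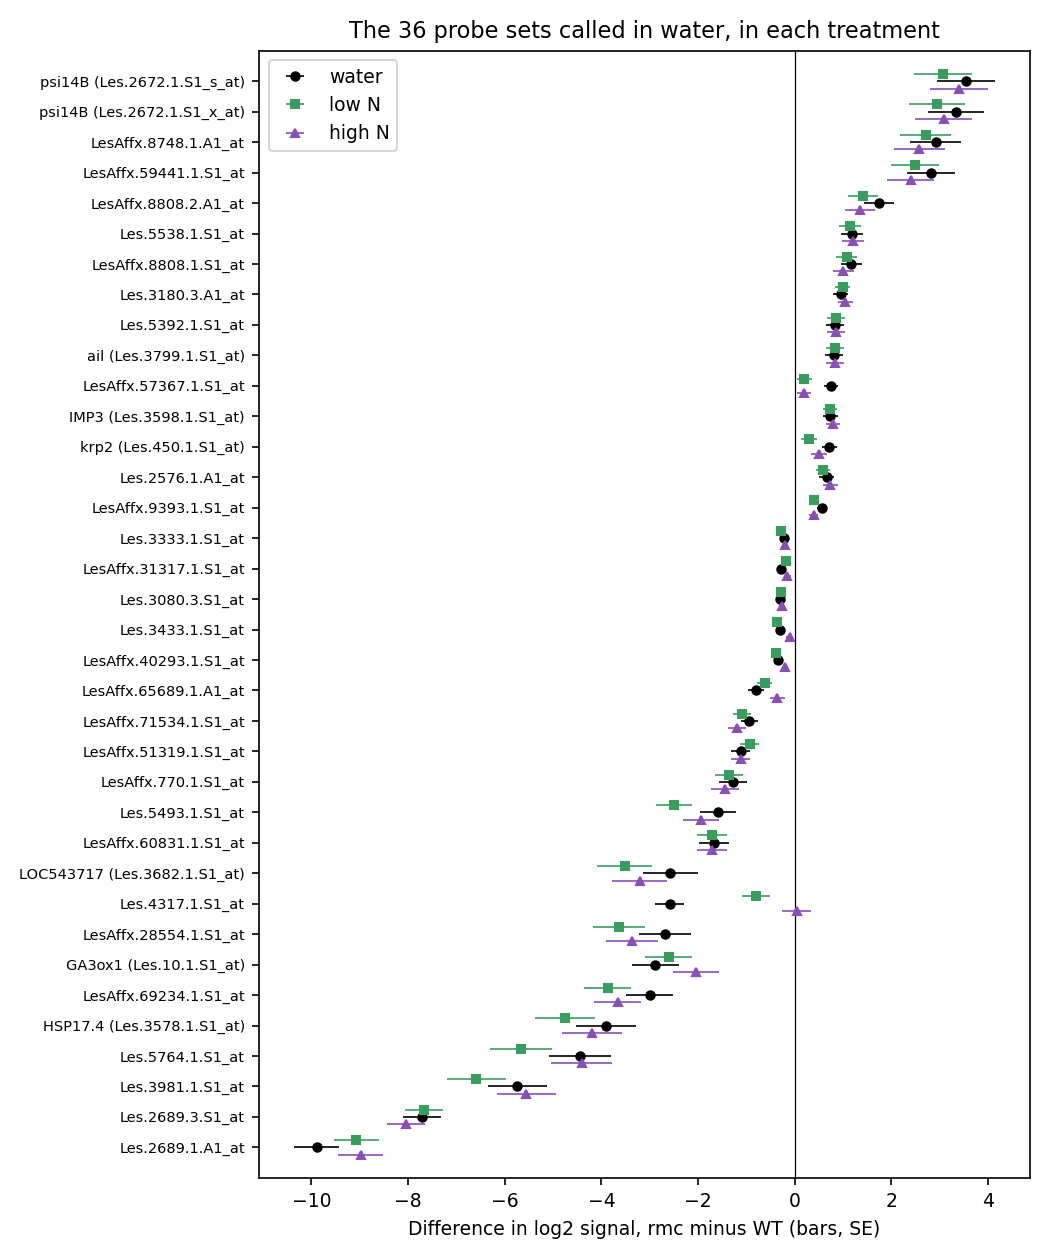
Difference in log2 signal, rmc minus WT (horizontal axis, bars are SEs), of the 36 probe sets called in water, in water (circles), low N (squares) and high N (triangles), ordered by the difference in water. Most symbols of a row lie close together, the differences of probe sets under 4.66 in a genotype are fitted readings and not bounds, and Les.4317.1.S1_at moves from -2.58 in water to 0.04 in high N.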

How the data were processed

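The submitters' processing notes name MAS5 and, as software, Affymetrix Expression Console, without a version. The authors deposited log2 signals for 10209 probe sets on 30 arrays. In linear form each water array has a 2% trimmed mean of 500.0, so the values cannot show a change shared by every transcript. No label gives a scan date or batch. Control probe sets (108 array and 63 reporter controls) and the lowest 25% of the rest by mean signal were left out.

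The platform's gene annotation, of unknown age, holds 1 symbol for 909 of 10038 probe sets, several for 0 and none for 9129; 885 matched RefSeq (assembly SLM_r2.1), which supplied current symbols. It holds no gene titles, so lists were matched by symbol alone.

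Differences were fitted with limma 3.58.1 in R 4.3.3 (lmFit and eBayes with an intensity trend) over all 30 arrays with 6 group means, two-sided, with Benjamini-Hochberg adjustment over 7528 probe sets and a threshold of 0.05. The fit was tested on simulated data. Array measures were compared by exact permutation over 252 divisions of the 10 arrays. Dim probe sets, and single dim arrays of others, were bounded by the highest water-array reading of 86 control probe sets for sequences not added (4.66; the next probe set reads 3.49).

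Named genes are the 15 largest named rises and falls among calls (all, as fewer passed), called list members, up to 6 members of the phosphate, symbiosis and nitrogen lists that did not pass, and 2 unnamed probe sets per direction. Others were chosen after their values were seen. The comparison, lists and rules were chosen with earlier results of these data known. Alternatives were 3 other scalings, 2 other filters, a floor, a fit of only the groups compared, a replicate block, array weights and leaving out each array.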

Additional observations from a re-analysis of the deposited data

Results flagged for a closer look

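In a group of 5 arrays, a value was marked where its gap to the next array exceeded 0.71 of the group's whole range, which chance does in about 1 in 20 groups; 82 groups were examined. Of the values marked, 5 belong to rmc water replicate 4, the lowest of its group each time. They are 9.39 for PPCK1 (others 10.37 to 10.67), 6.78 for PPCK2 (8.56 to 9.28), 7.74 for LesAffx.59441.1.S1_at (9.94 to 10.73), 2.31 for psi14A (6.99 to 8.55) and 2.02 for the third psi14B probe set (7.36 to 8.94). All 5 transcripts are higher on the other rmc arrays than in WT. The readings of 2.31 and 2.02 lie under 4.66 and are only bounded, so the size of their gaps is not measured. The array's part in these differences is given in the report, with and without it.

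In WT, TPSI1 read 11.13 in replicate 2 (others 11.78 to 11.97) and gts1 9.10 in replicate 4 (others 9.62 to 9.75). The hybridization spikes read 9.67 in WT replicate 4 (others 9.84 to 9.91), and the GAPDH 3' minus 5' difference was 0.406 in WT replicate 3 (others 0.124 to 0.186).

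For Les.4317.1.S1_at the genotype difference in water differed from that in high N by -2.63 (limma adjusted p = 0.00918).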

How the results depend on the processing

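Against 36 calls in water, the count was 18 with the lowest 50% of probe sets left out (6 lower in rmc). A fit of only the water arrays gave 20 (5 higher), of which 16 were among the 36. The count was 223 with array weights (88 higher, 135 lower). It was 51 with no filter (33 lower) and 51 with the replicate block (25 higher). Poly-A spike scaling left 5 higher, and shared 21 of its 31 calls with the 36; array weights, no filter and the block kept all 36. Leaving out single arrays gave 22 to 54 calls, 9 to 31 higher and 12 to 23 lower.

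Low N gave 96 calls with quantile normalization, 26 with poly-A spike scaling, 80 in a fit of only its groups and 296 with array weights, and 59 to 166 without single arrays. High N gave 46, 5 and 657 under the last 3 of these, and 23 to 142 without single arrays. The call of water against high N stood at 1, and that of water against low N at 0, in every alternative run.

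Same-numbered WT and rmc water arrays deviated together with correlations of 0.05, 0.165, 0.456, 0.378 and 0.33, and 1 of the 5 was under the 0.1 asked of every pair, so the numbers, which no label ties to a shared source, were not taken as pairs. The alternatives were tallied for 21 of the 36 probe sets called, not for all of those described. Of these 21, 10 kept their call in every alternative that tested them. Only 4 of the 10 were tested in all, as leaving out the lowest 50% removed the others. Of 389 single results, 42 lost the call, none changing sign. The 15 tallied that did not pass had 281 single results. Of these, 268 were the same, 10 were stronger than in the main fit and 3 changed sign. PT1 turned to -0.08 and GS2 to -0.03 with poly-A spike scaling, and GS2 to -0.05 with array weights. The cause was not tested. The 3' poly-A spikes alone differed by 0.364. Values under 4.66 have no order.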
